A study of Mus musculus with 24 samples.

Results

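The 10 genes described here encode the readers and erasers of N6-methyladenosine (m6A), and they were taken by symbol from the 47937 genes of both count tables, where all 10 were found and all 10 passed the filter on low counts. They comprise 5 YTH readers (Ythdf1, Ythdf2, Ythdf3, Ythdc1 and Ythdc2), 3 IGF2BP readers (Igf2bp1, Igf2bp2 and Igf2bp3) and 2 erasers (Fto and Alkbh5). Their RNA was measured in 4 mouse ES cell lines kept on gelatin with Serum Replacement and LIF. All 4 lines share the strain 129/Sv x C57Bl6. WT26 is a wild type line and Mettl14 KO is 1 clone (A10) made from it by CRISPR/Cas9, per the methods with guides against Mettl3 and Mettl14 given together, of which Mettl14 carries a frameshift on both alleles and Mettl3 keeps its catalytic domain. RBC carries BirA-V5 at Rosa26 together with Cre-ERT2, and Mettl3 KO is 1 clone (2c4d) derived from RBC, with the same Rosa26 BirA-V5 and Cre-ERT2. Each knockout is therefore compared with its own control line. As each knockout is 1 clone, its difference from that line may also hold a trait of the clone, which cannot be told apart. Replicates of 1 clone do not measure the spread between clones. A difference between the knockouts may also hold a difference between their parental lines or between clones, which cannot be told apart. Nuclear RNA was sequenced in 8 RNA-seq libraries and in 16 MeRIP-seq libraries, the latter from sonicated RNA before (input) and after (IP) immunoprecipitation with an α-m6A antibody, with 2 biological replicates per group.

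m6A is placed on RNA by a complex in which METTL3 is the catalytic subunit and METTL14 helps to bind the RNA. Proteins with a YTH domain bind the methylated adenosine directly. YTHDF1, YTHDF2 and YTHDF3 are cytoplasmic and are best known for controlling translation and decay of mRNA, YTHDC1 is nuclear and acts in splicing, export and on chromatin-associated RNA, and YTHDC2 is an RNA helicase known from meiosis. IGF2BP proteins bind many mRNAs through KH domains and are known to stabilize them, and FTO and ALKBH5 are dioxygenases of the AlkB family that remove the methyl group.

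RNA-seq totals ranged from 11321459 to 13743181 counts and MeRIP-seq totals from 9394163 to 28441282. Reads of the targeted genes were still counted: Mettl14 had 296.5 and 315.6 normalized counts in Mettl14 KO and 400.6 and 357.5 in WT26 cells, and Mettl3 had 880.0 and 820.9 in Mettl3 KO and 927.7 and 978.9 in RBC cells. The level of a transcript does not test a frameshift. The 2 RNA-seq replicates of RBC stood further apart than those of the other lines (chi-square divided by its degrees of freedom over all genes 35.6, against 2.76 to 5.75). Without either RBC library the number of members passing a test below changed by at most 1 in each RNA-seq comparison. All 10 ES cell markers were counted in every library.

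On GRCm38 the YTHDF genes are at chr2:180904377-180920949 (Ythdf1, minus strand), chr4:132184912-132212303 (Ythdf2, minus) and chr3:16183212-16217037 (Ythdf3, plus), and Ythdc1 is at chr5:86804221-86836659 (plus). The IGF2BP genes are at chr11:95957163-96005940 (Igf2bp1, minus), chr16:22059009-22163299 (Igf2bp2, minus) and chr6:49085223-49214957 (Igf2bp3, minus), and the erasers at chr8:91313525-91668439 (Fto, plus) and chr11:60536381-60558512 (Alkbh5, plus). Values are of whole genes, so they place no read or m6A site within them.

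The m6A antibody enriched the transcripts of the 3 Ythdf genes, and these sequences are shown because GGACT is the best known form of the m6A consensus RRACH (R is A or G, H is A, C or T). Each window is 25 bases of the coding part of the transcript, read 5′ to 3′ on the gene's strand from GRCm38 with the GENCODE vM21 annotation, and the capitals mark GGACT. The Ythdf1 window lies in exon 4 of 5 (chr2:180910958-180910982, minus strand), the Ythdf2 windows in exon 3 of 5 (chr4:132210788-132210812, minus strand) and in exon 4 (chr4:132204403-132204427, minus strand), and the Ythdf3 window in exon 4 of 5 (chr3:16204257-16204281, plus strand).
Ythdf1: agtcccctgtGGACTacggcaccag
Ythdf2, exon 3: tcaaaaggatGGACTaaatgatgat
Ythdf2, exon 4: aatctgctgtGGACTacaacacatg
Ythdf3: aggcatgactGGACTgaaaattggt
The exon 4 window of Ythdf2 shared 18 of its 25 bases with the Ythdf1 window. The exon 3 window of Ythdf2 and the Ythdf3 window shared 9 each. All these counts include the 5 capitals, which every window holds because it was chosen for GGACT. The match between unrelated sequences was not computed, so a count of 9 shows no likeness. The letters GGACT occurred 1 time in the Ythdf1 transcript, 5 times in Ythdf2 and 1 time in Ythdf3, counted on the transcript strand. Of the 5 in Ythdf2, 3 lie in its 3′UTR, the untranslated part after the coding part, and are not shown. Of 21866 coding genes, 87% held GGACT in their transcript and 71.5% in its coding part, with a median of 1.02 per kilobase. Ythdf1 with 0.314 per kilobase and Ythdf3 with 0.196 lay below that median and Ythdf2 with 1.21 above it. Of the members that passed as lower in the IP of some lines, Igf2bp1 had 1.19, Igf2bp3 0.46 and Ythdc2 0.416 per kilobase. No GGACT was found in the Ythdc1 transcript used, which has 2960 bases. The longest annotated Ythdc1 transcript has 6313 bases and was not searched. Alkbh5 had the highest density of the 10 genes, 1.75 per kilobase. The 12 words of RRACH together, which include GGACT, occurred 12 to 15.6 times per kilobase in the 10 transcripts, against a median of 14.8 over all coding genes. These counts describe letters in a transcript and do not place a methylated base.

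Among the 5 YTH readers, Ythdf2, Ythdf3 and Ythdc2 were lower in Mettl14 KO than in WT26 cells, while in Mettl3 KO cells Ythdf2 was higher than in RBC and no YTH reader was lower by the test. Of the 10 genes, 8 differed between Mettl14 KO and WT26 cells, 2 higher and 6 lower, at an adjusted p of at most 0.05 in edgeR's quasi-likelihood test. Over all 17021 tested genes 52.5% passed the same test (25.5% higher and 27% lower), so a difference was common in these lines. Between Mettl3 KO and RBC cells 4 of the 10 differed, all 4 higher, against 53.4% of all genes in either direction (25.2% higher and 28.1% lower). Scaling by library size alone moved the median of all genes to 0.149 in this comparison, with 6047 genes then called higher and 3445 lower in place of 4296 and 4789, and 8 members called higher. Without replicate 1 of Mettl14 KO 5 members passed in that line (Ythdc1, Igf2bp2 and Alkbh5 did not), and without replicate 1 of Mettl3 KO 2 passed in the other (Fto and Alkbh5 did not). With a log2 fold change over 1 also required, 0 members passed in either knockout, against 14.5% and 13.6% of all genes. The normalized counts did not overlap between the replicates of the lines for 9 of 10 members in Mettl14 KO against WT26, 6 of 10 in Mettl3 KO against RBC and 6 of 10 in RBC against WT26, beside 76.5%, 75.6% and 69.5% of all tested genes. The median log2 fold change of the 10 was -0.21 for Mettl14 KO against WT26 and 0.11 for Mettl3 KO against RBC, where the medians of all genes were 0 and -0.002.

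**Figure D1:**
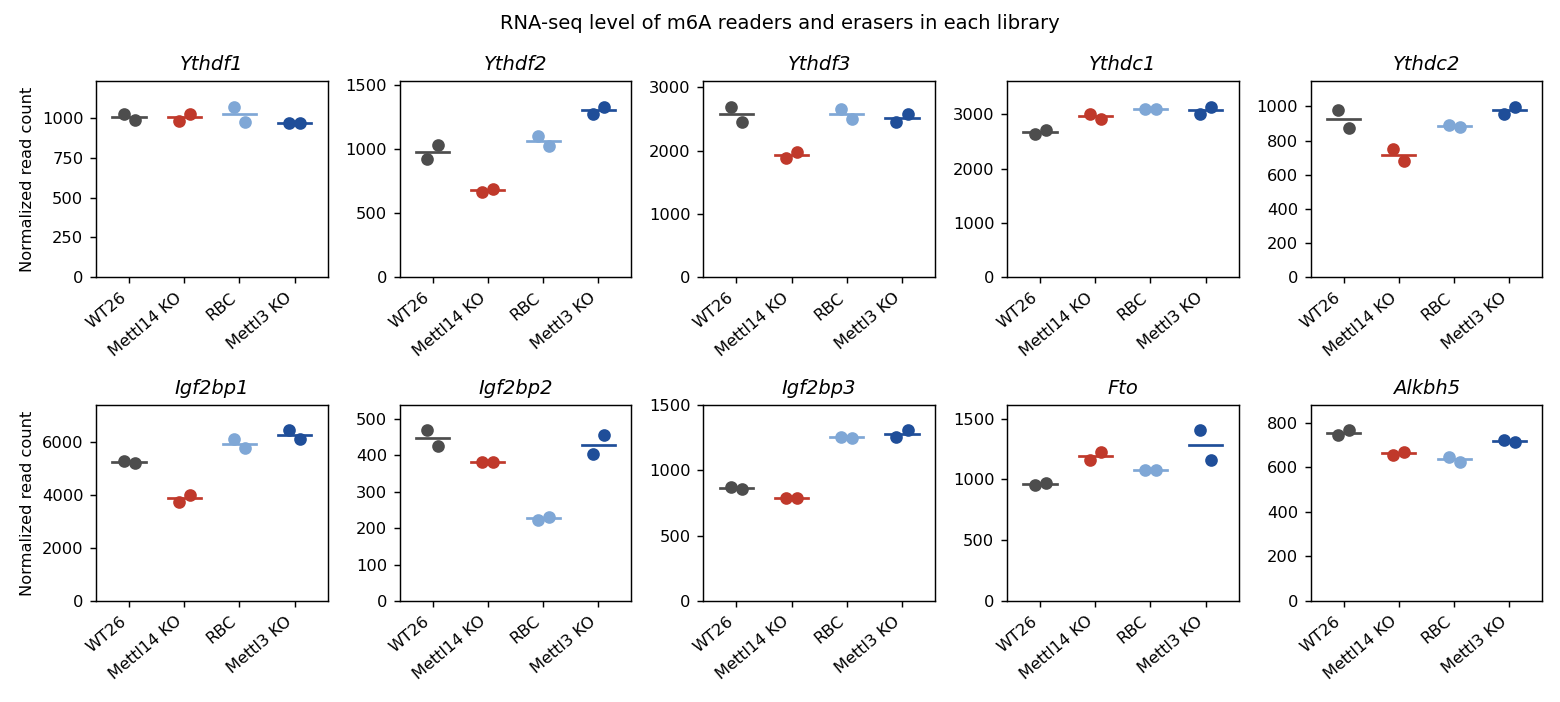
Normalized read counts of the 10 genes (vertical axes, linear and from 0, a separate range per gene) in the 8 RNA-seq libraries of the 4 lines, with a point per replicate and a bar at the mean of the 2. Ythdf2, Ythdf3, Ythdc2 and Igf2bp1 are lowest in both Mettl14 KO libraries, and Igf2bp2 is lowest in both RBC libraries.

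Ythdf2, which recruits the CCR4-NOT deadenylase to methylated mRNA, had 922.4 and 1031.8 normalized counts in the WT26 libraries, 667.0 and 688.8 in those of Mettl14 KO, 1100.1 and 1021.3 in those of RBC and 1268.7 and 1328.6 in those of Mettl3 KO. Both Mettl14 KO libraries lay below, and both Mettl3 KO libraries above, all 4 control libraries. Against its control line the log2 fold change was -0.53 for Mettl14 KO (standard error 0.0671, 95% confidence interval -0.67 to -0.38, adjusted p = 3.67e-06 in edgeR) and 0.29 for Mettl3 KO (standard error 0.0638, adjusted p = 8.46e-04). Ythdf3 had 2694.8 and 2457.5 normalized counts in the WT26 libraries, 1880.9 and 1984.4 in those of Mettl14 KO, 2664.7 and 2495.1 in those of RBC and 2459.2 and 2575.5 in those of Mettl3 KO. Only the Mettl14 KO libraries stood apart, with a log2 fold change of -0.41 against WT26 (adjusted p = 3.93e-06), while that of Mettl3 KO against RBC was -0.04 (95% confidence interval -0.15 to 0.08). Ythdf1 kept nearly the same level everywhere, from 964.9 to 1069.1 normalized counts over the 8 libraries. The 95% confidence interval of its log2 fold change ran from -0.13 to 0.13 in Mettl14 KO against WT26 and from -0.21 to 0.05 in Mettl3 KO against RBC.

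Of the YTHDC readers, Ythdc1 was slightly higher and Ythdc2 lower in Mettl14 KO. Ythdc1 had 2643.3 and 2708.8 normalized counts in the WT26 libraries, 3009.6 and 2907.0 in those of Mettl14 KO, 3086.6 and 3098.5 in those of RBC and 3005.3 and 3137.6 in those of Mettl3 KO. The 2 WT26 libraries were the lowest, and Ythdc1 was higher in Mettl14 KO (log2 fold change 0.14, adjusted p = 0.0139). Its value in Mettl3 KO against RBC did not pass (-0.01, adjusted p = 0.872). Gm43055 overlaps 631 exonic bases of Ythdc1 on the same strand, so reads of the 2 genes may be mixed. Ythdc2 had 980.3 and 872.9 normalized counts in the WT26 libraries, 753.2 and 682.9 in those of Mettl14 KO, 888.6 and 879.4 in those of RBC and 956.6 and 998.2 in those of Mettl3 KO. It was lower in Mettl14 KO (log2 fold change -0.37, standard error 0.0699, adjusted p = 2.41e-04), and its value of 0.14 in Mettl3 KO cells missed the threshold (adjusted p = 0.0860).

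Of the IGF2BP readers, Igf2bp1 was lower in Mettl14 KO, Igf2bp2 was lowest in RBC, and Igf2bp3 was higher in RBC than in WT26. Igf2bp1, an mRNA-binding protein of embryonic tissues, had 5297.4 and 5217.8 normalized counts in the WT26 libraries, 3744.7 and 4016.6 in those of Mettl14 KO, 6123.7 and 5770.1 in those of RBC and 6445.5 and 6119.0 in those of Mettl3 KO. It was 1.36-fold lower in Mettl14 KO (log2 fold change -0.44, standard error 0.0537, adjusted p = 2.29e-06), and its value of 0.08 against RBC in Mettl3 KO did not pass (adjusted p = 0.222). Igf2bp2 had 468.4 and 424.1 normalized counts in the WT26 libraries, 381.6 and 381.9 in those of Mettl14 KO, 223.0 and 230.7 in those of RBC and 403.5 and 454.3 in those of Mettl3 KO. It was the RBC line that stood apart: Igf2bp2 was 1.97-fold lower in RBC than in WT26 cells and 1.89-fold higher in Mettl3 KO than in RBC cells (log2 fold change 0.91, standard error 0.0924, adjusted p = 1.94e-07), and the counts of Mettl3 KO and WT26 overlapped. In Mettl14 KO cells its log2 fold change was -0.23 (adjusted p = 0.0328), a call that DESeq2 did not make (adjusted p = 0.189) and that was lost without either Mettl14 KO library (0.114 and 0.106) or without replicate 1 of WT26 (0.252). Igf2bp3 had 868.1 and 857.8 normalized counts in the WT26 libraries, 786.2 and 788.1 in those of Mettl14 KO, 1256.5 and 1243.1 in those of RBC and 1254.8 and 1304.4 in those of Mettl3 KO. It was high in the RBC and Mettl3 KO lines and low in WT26 and Mettl14 KO, and did not pass the test of either knockout, at a log2 fold change of -0.13 between Mettl14 KO and WT26 (adjusted p = 0.0565) and of 0.03 between Mettl3 KO and RBC (adjusted p = 0.619). Malsu1 overlaps 1529 exonic bases of Igf2bp3 on the other strand, and whether the RNA-seq counting used strand is not given in the sources used here, so reads of the 2 genes may be mixed.

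Both erasers were higher in Mettl3 KO cells, and they moved apart in Mettl14 KO cells. Fto had 954.0 and 969.5 normalized counts in the WT26 libraries, 1158.8 and 1223.6 in those of Mettl14 KO, 1074.8 and 1076.5 in those of RBC and 1402.7 and 1162.4 in those of Mettl3 KO. It was 1.24-fold higher in Mettl14 KO (log2 fold change 0.31, adjusted p = 0.00153) and 1.19-fold higher in Mettl3 KO (0.26, adjusted p = 0.00552). Without replicate 1 of Mettl3 KO, the library with 1402.7, the Mettl3 KO value was 0.11 (adjusted p = 0.186). Fto, which also acts on modified bases near the mRNA cap, shares exonic bases with 4831440D22Rik and Gm45427 on the other strand. Alkbh5 had 746.1 and 765.5 normalized counts in the WT26 libraries, 655.0 and 669.3 in those of Mettl14 KO, 647.2 and 624.0 in those of RBC and 720.0 and 713.1 in those of Mettl3 KO. It was lower in Mettl14 KO (log2 fold change -0.19, adjusted p = 0.0192) and higher in Mettl3 KO cells (0.17, adjusted p = 0.0316), and DESeq2 called neither (adjusted p of 0.126 and 0.171). Alkbh5 also lost its call when 1 of several libraries was left out, with adjusted p of 0.0565 without replicate 2 of Mettl14 KO and 0.160 without replicate 2 of RBC.

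**Figure D2:**
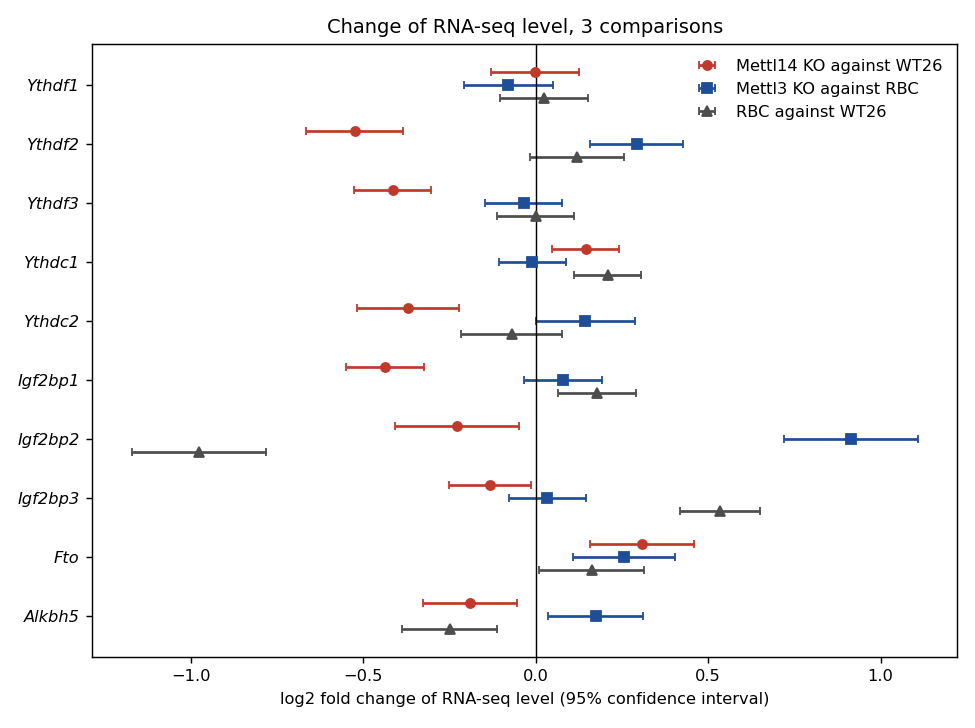
Log2 fold change of the RNA-seq level (horizontal axis) of each gene with its 95% confidence interval in Mettl14 KO against WT26, Mettl3 KO against RBC and RBC against WT26, from the fit over all 8 libraries. The interval of Ythdf2 lies below 0 in Mettl14 KO and above 0 in Mettl3 KO, and the widest change between the control lines is that of Igf2bp2 at -0.98.

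The changes in Mettl14 KO were more negative than those in Mettl3 KO for 6 members by the test of the difference between the knockout changes, and for 0 members more positive, where 43.2% of all genes passed (22.4% more positive and 20.8% more negative). The difference was -1.14 for Igf2bp2 (standard error 0.126, adjusted p = 1.17e-06) and -0.82 for Ythdf2 (standard error 0.0925, adjusted p = 1.59e-06). It was -0.52 for Igf2bp1 and for Ythdc2, -0.38 for Ythdf3 and -0.36 for Alkbh5 (adjusted p between 2.72e-05 and 0.00365). For Fto it was 0.05 with a 95% confidence interval of -0.16 to 0.27. With a difference over 1 also required, 1 member passed (Igf2bp2), against 14% of all genes. Between the control lines 5 members differed, against 38.9% of all genes (19.7% higher and 19.2% lower in RBC), and 0 with a log2 fold change over 1, against 8.98%. These control line values share the WT26 libraries with the Mettl14 KO comparison and the RBC libraries with the Mettl3 KO comparison. Igf2bp3 (log2 fold change 0.53), Ythdc1 (0.21) and Igf2bp1 (0.18) were higher in RBC than in WT26 cells, and Igf2bp2 (-0.98) and Alkbh5 (-0.25) were lower. With scaling by library size alone, which moved the median of all genes to -0.155 and the calls to 2169 higher and 5499 lower in place of 3347 and 3272, Ythdc1 and Igf2bp1 no longer passed, and Ythdf3 (-0.15, adjusted p = 0.0311) and Ythdc2 (-0.22, adjusted p = 0.0152) passed as lower, so that 1 member was higher and 4 were lower in place of 3 and 2. In the difference between the knockouts that scaling gave 2656 more positive and 5168 more negative genes in place of 3808 and 3538.

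The ES cell markers moved with the knockouts. The sum of the 10 was 28639.4 and 29206.0 normalized counts in the WT26 libraries against 20731.7 and 20282.7 in those of Mettl14 KO, and 26309.9 and 26160.0 in those of RBC against 18311.2 and 18444.6 in those of Mettl3 KO. By the same test 10 of the 10 were lower in Mettl14 KO and 9 lower and 1 higher in Mettl3 KO. The summed level of 4 primitive endoderm markers was 231.4 and 222.1 normalized counts in Mettl14 KO against 81.4 and 77.3 in WT26, and 40.9 and 55.4 in Mettl3 KO against 79.3 and 65.1 in RBC cells. Gata6, Gata4 and Pdgfra were tested and passed as higher in Mettl14 KO. In Mettl3 KO Pdgfra was lower (19.1 and 22.2 against 37.9 and 42.4), while Gata4 had 8.7 and 17.1 against 8.0 and 5.9 and did not pass. The sum of 5 fibroblast markers was 27.3 to 116.3 normalized counts over the 8 libraries, with Col3a1 at 0 in 6 of them. Of the 3 that could be tested, Thy1, which ES cells also express, was lower in both knockouts (log2 fold change -2.03 and -2.62), Col1a2 was higher in Mettl3 KO (2.26), and no other passed. The sum of 4 primed epiblast markers was 902.5 to 1242.2, most of it Dnmt3b. Of the 3 tested, Pou3f1 (-3.06) and Dnmt3b were lower and Otx2 (0.65) was higher in Mettl14 KO, Dnmt3b was lower in Mettl3 KO (-0.17), and Fgf5 was near 0 throughout. The part of these shifts in the levels of the readers and erasers was not tested. In bulk RNA, fewer cells of a type and less RNA per cell cannot be told apart.

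Per kilobase of the union of exons, Igf2bp1 had the highest and Igf2bp2 the lowest RNA-seq level of the 10 in every line. In WT26 cells the normalized counts per kilobase were 543.0 ± 5.8 (SD, n = 2) for Igf2bp1, 480.4 ± 31.3 for Ythdf3, 302.4 ± 7.3 for Ythdf1, 213.7 ± 16.9 for Ythdf2 and 196.0 ± 3.4 for Ythdc1. Below these followed Alkbh5 with 126.2 ± 2.3, Igf2bp3 with 105.8 ± 0.89, Ythdc2 with 104.4 ± 8.6, Fto with 73.8 ± 0.84 and Igf2bp2 with 60.3 ± 4.2. The replicate values of Igf2bp3 and Ythdc2 overlapped. Those of Ythdf2 (201.7 and 225.7) and Ythdc1 (193.6 and 198.4) lay close together without overlap. Igf2bp1 lay at the 94.6th percentile and Igf2bp2 at the 52nd percentile of 16941 tested genes. In RBC cells Igf2bp2 was at 30.7 ± 0.73, the 37.8th percentile. The order depends on the length used, and with the longest annotated transcript 5 of 10 genes kept their place in the mean order of the lines. Ythdc1 then stood at 423.9 ± 7.3 in WT26, the third highest level there, and in Mettl14 KO cells its 468.6 ± 11.5 and the 463.2 ± 23.0 of Igf2bp1 overlapped.

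The MeRIP input libraries are a second measurement of the same genes. Igf2bp2 had a log2 fold change of 0.75 there in Mettl3 KO against RBC (0.91 in RNA-seq) and of -1.03 in RBC against WT26 (-0.98 in RNA-seq), and Igf2bp3 one of 0.74 in RBC against WT26 (0.53 in RNA-seq). In Mettl14 KO the input values were -0.67 for Ythdf2, -0.47 for Ythdf3, -0.45 for Igf2bp1 and 0.25 for Fto, and Ythdc2 was at -0.07 there against -0.37 in RNA-seq. The signs of both assays were equal for 8 of 10 members in Mettl14 KO against WT26 (not Ythdf1 and Igf2bp3), 9 of 10 in Mettl3 KO against RBC (not Igf2bp3) and 8 of 10 in RBC against WT26 (not Ythdf2 and Ythdc2). The values with unequal signs were at most 0.139 in size, and 0 of them passed in either assay. The share of all genes with equal signs was not computed. In the fit over all 16 MeRIP libraries 0 of 10 members passed in any of these 3 comparisons, where 0.398%, 0.76% and 0.584% of 22621 features passed. At an unadjusted p under 0.05 there were 0, 1 and 2 members, against 10.6%, 11.7% and 8.13% of features. DESeq2 called 0, 0 and 1 members, against 412, 460 and 288 features. This fit shares the spread of the IP libraries, and its biological coefficient of variation was 0.273 against 0.0625 in RNA-seq. In a fit of the 8 input libraries alone with the replicate number as a block, Ythdf2 (adjusted p = 0.00343), Ythdf3 (0.0119) and Igf2bp1 (0.0223) were lower in Mettl14 KO. In that fit Igf2bp2 was higher in Mettl3 KO (0.00446), and Igf2bp2 (7.35e-04) and Igf2bp3 (0.00623) differed between RBC and WT26, where 2466, 3143 and 1611 features passed in the 3 comparisons.

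**Figure D3:**
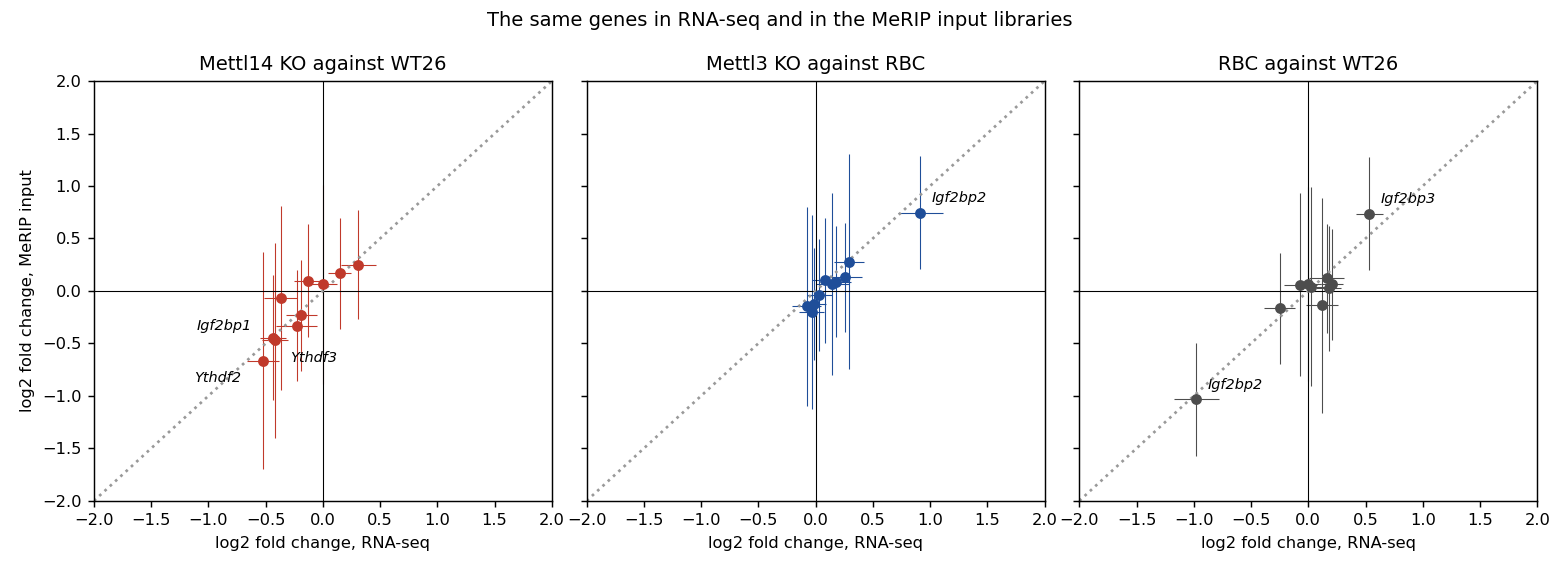
Log2 fold change in RNA-seq (horizontal axis) and in the MeRIP input libraries (vertical axis) for the 10 genes in 3 comparisons, with 95% confidence intervals and a dotted line where both are equal. The named genes, which have an RNA-seq change over 0.4 in size, lie near the dotted line, and the vertical intervals are the wider ones.

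In the m6A IP, the transcripts of the 3 Ythdf genes were enriched over input in WT26, Mettl14 KO and RBC cells, and those of Ythdc2 and Igf2bp1 were depleted. Enrichment is the log2 of IP over input in normalized counts, and because the size factors set the middle of all features near 0, it is relative to the median feature. In WT26 the fitted value was 1.86 for Ythdf2 (95% confidence interval 0.81 to 2.91, adjusted p = 0.0139), 1.71 for Ythdf1 (0.74 to 2.68, adjusted p = 0.0140) and 1.45 for Ythdf3 (0.51 to 2.39, adjusted p = 0.0235). These 3 of 10 members passed an adjusted p of 0.05 and a log2 fold change over 1, against 14.5% of 22621 features. The same 3 passed in Mettl14 KO (2.02, 1.65 and 1.43, against 11.9% of features) and in RBC cells (1.85, 1.64 and 1.41, against 13.4%). In Mettl3 KO cells the values were 1.18 for Ythdf2, 0.79 for Ythdf1 and 0.97 for Ythdf3, and 0 of 10 members passed, against 2.54% of features. There 0 members were lower either, against 2.22%, and in total 5% of features passed the adjusted p. In that line 3 of 10 members had an unadjusted p under 0.05, against 25.7% of all features. DESeq2 called 0 members as enriched there, against 1107 features. Ythdf2 passed in Mettl3 KO when the 4 libraries of that line were fitted alone (adjusted p = 0.0443) or no filter on low counts was used (0.00441).

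The enrichment of the Ythdf transcripts was seen in each replicate, and it was larger in replicate 2 of every line. Ythdf2 had a log2 ratio of 1.29 and 2.21 in the replicates of WT26, while those of Mettl14 KO gave 1.36 and 2.40, those of RBC 1.20 and 2.31 and those of Mettl3 KO 0.60 and 1.57. Within each replicate number the Mettl3 KO value was the lowest of the 4 lines. Ythdf1 had log2 ratios of 1.01 and 2.19 in WT26, and Mettl14 KO gave 0.99 and 2.05, RBC 1.01 and 2.06 and Mettl3 KO 0.43 and 1.09. Ythdf3 had 0.81 and 1.88 in WT26, and Mettl14 KO gave 0.93 and 1.76, RBC 0.90 and 1.73 and Mettl3 KO 0.56 and 1.26. The whole libraries differed in the same way: the interquartile range of the log2 ratio over all features was 1.12 to 1.24 in replicate 1 and 2.16 to 2.22 in replicate 2 of the first 3 lines, and 0.870 and 1.42 in Mettl3 KO cells. Placed among all features of its library, Ythdf2 was at the 91.1st and 94.7th percentile in RBC and the 82.2nd and 91.7th in Mettl3 KO, Ythdf1 at the 87.0th and 92.0th and the 75.8th and 83.9th, and Ythdf3 at the 84.2nd and 87.4th and the 80.6th and 87.4th, so that Ythdf3 kept its place in replicate 2. The part of the IP libraries' spread in the values of single genes was not tested. In each of the first 3 lines these calls were lost when either input library or the replicate 2 IP library was left out. They were kept without the replicate 1 IP library. Each such fit leaves 1 library in a group. In the fits that lost these calls, the calls over all features fell strongly too, so the loss was not particular to the Ythdf genes.

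**Figure D4:**
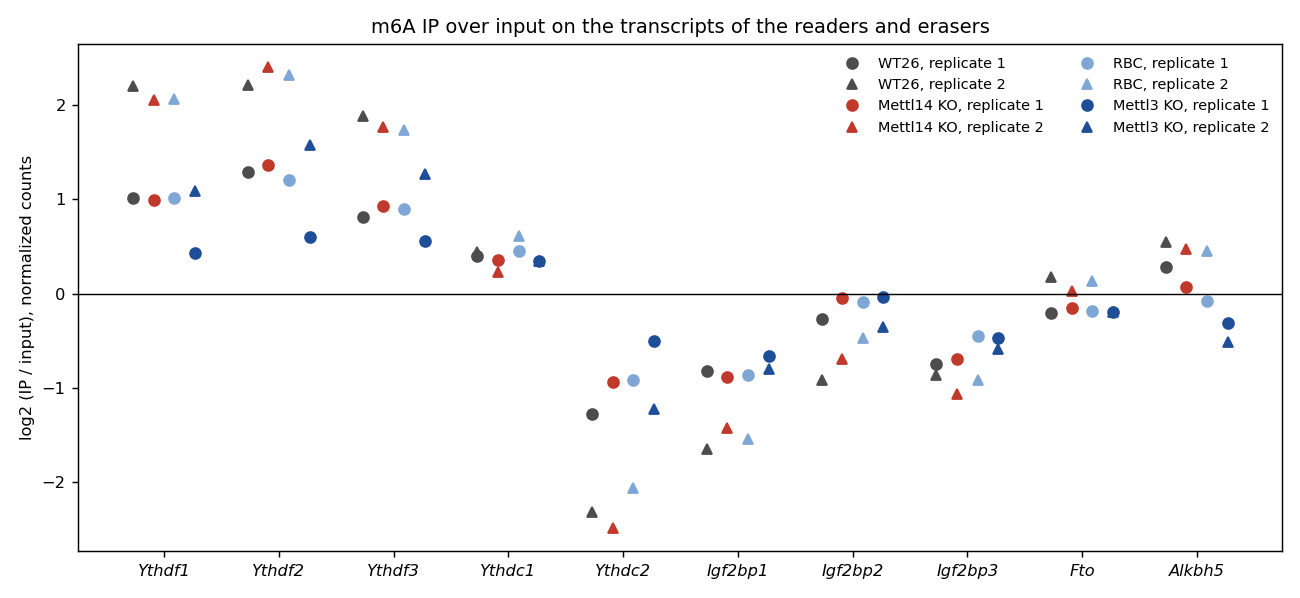
Log2 ratio of IP over input (vertical axis, normalized counts) of the 10 genes in each replicate of the 4 lines (circles, replicate 1; triangles, replicate 2; colours, lines). The Ythdf genes lie above 0 and Ythdc2 and Igf2bp1 below 0 in all 8 pairs of libraries, and replicate 2 lies further from 0 for these 5 genes.

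Ythdc2, the helicase, had fitted enrichments of -1.66 for WT26, -1.64 for Mettl14 KO, -1.41 for RBC and -0.83 for Mettl3 KO, and passed as lower in the first 3 lines (adjusted p = 0.0119, 0.0169 and 0.0251). In single replicates the log2 ratio went from -2.48 in replicate 2 of Mettl14 KO to -0.50 in replicate 1 of Mettl3 KO. Igf2bp1 had -1.21, -1.17, -1.15 and -0.73 in the same order of lines and passed as lower in the first 3. Igf2bp3 passed in WT26 (-0.79, adjusted p = 0.0283) and Mettl14 KO (-0.85, adjusted p = 0.0272) and had -0.69 in RBC (adjusted p = 0.0515) and -0.53 in Mettl3 KO cells. Members lower by adjusted p thus numbered 3, 3 and 2 in WT26, Mettl14 KO and RBC, where 16.1%, 12% and 13.1% of features were lower. Unlike the calls of the Ythdf genes, these lower calls were not counted again with a library left out. In either direction 6, 6 and 5 members passed the adjusted p, against 33%, 25.5% and 28.6% of features. Ythdc1, Igf2bp2, Fto and Alkbh5 did not pass in any line, with fitted values from -0.59 to 0.53. A value below 0 says that a transcript was recovered less than the median feature, and gives no amount of m6A.

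No member passed the test of a change in enrichment in either knockout. In Mettl14 KO against WT26 the 10 changes lay between -0.14 and 0.22, with 0 of 10 passing and 0 at an unadjusted p under 0.05, where 0% of all features passed and 0.557% had an unadjusted p under 0.05. In this fit, which has no replicate term, the 95% confidence intervals of the 10 reached from -1.40 at the lowest to 1.60 at the highest. A change of 1 log2 unit in the 3 Ythdf transcripts lies within these wide intervals. Within replicate numbers the changes of these 3 transcripts in Mettl14 KO against WT26 were smaller, from -0.15 to 0.19. In Mettl3 KO against RBC the change was -0.85 for Ythdf1, -0.68 for Ythdf2, -0.44 for Ythdf3, -0.61 for Alkbh5, 0.58 for Ythdc2 and 0.42 for Igf2bp1. None passed (adjusted p from 0.854 to 0.862 for these 6 genes, 0 of 10 members at an unadjusted p under 0.05), and again 0% of all features did, 3.48% having an unadjusted p under 0.05. The intervals were -2.19 to 0.49 for Ythdf1 and -1.35 to 0.14 for Alkbh5. Without replicate 2 of the RBC IP the value of Ythdf3 was 0.20. That fit sets only the replicate 1 IP of RBC beside the IPs of both Mettl3 KO replicates. Within replicates 1 and 2 the change of Ythdf3 was -0.34 and -0.47. DESeq2 called 0 members in both comparisons.

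Compared within one replicate number, the changes had the same sign in both replicates for 9 of 10 members in Mettl3 KO against RBC (not Igf2bp3) and for 5 of 10 in Mettl14 KO against WT26. The share of all features with equal signs was not computed. The 6 genes with the largest fitted changes in Mettl3 KO were chosen for that. Their changes in replicates 1 and 2 were -0.58 and -0.97 for Ythdf1, -0.59 and -0.75 for Ythdf2 and -0.34 and -0.47 for Ythdf3. They were -0.24 and -0.96 for Alkbh5, 0.41 and 0.83 for Ythdc2 and 0.20 and 0.74 for Igf2bp1. For 5 of these 6 the ratio in Mettl3 KO was thus nearer to 0 than in RBC. The ratio of Alkbh5 was below 0 in both Mettl3 KO replicates (-0.31 and -0.51). The ratios of all features also spread less in Mettl3 KO (interquartile range 0.870 and 1.42) than in RBC (1.124 and 2.186). Among all features Igf2bp1 was at the 15.1st and 17.8th percentile in RBC and the 16.4th and 22.4th in Mettl3 KO. Ythdc2 was at the 13.9th and 11.5th in RBC and the 22.65th and 13.2nd in Mettl3 KO. The part of the narrower spread in these changes was not tested. In Mettl14 KO the within-replicate changes of the 3 Ythdf genes were between -0.15 and 0.19. With the replicate number and its interaction with IP as terms, a fit chosen after seeing the data, the standard error of Ythdf1 fell to 0.218 and its change was -0.77 (adjusted p = 0.122). That of Ythdf2 was -0.67 (adjusted p = 0.123), and 0 of 10 members passed. The difference between the knockouts was between -0.56 and 0.84 for the 10 genes and the change between RBC and WT26 between -0.23 and 0.30, with 0 members passing in either and 0 at an unadjusted p under 0.05, beside 0% of all features passing and 0.946% and 0.588% at that p.

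**Figure D5:**
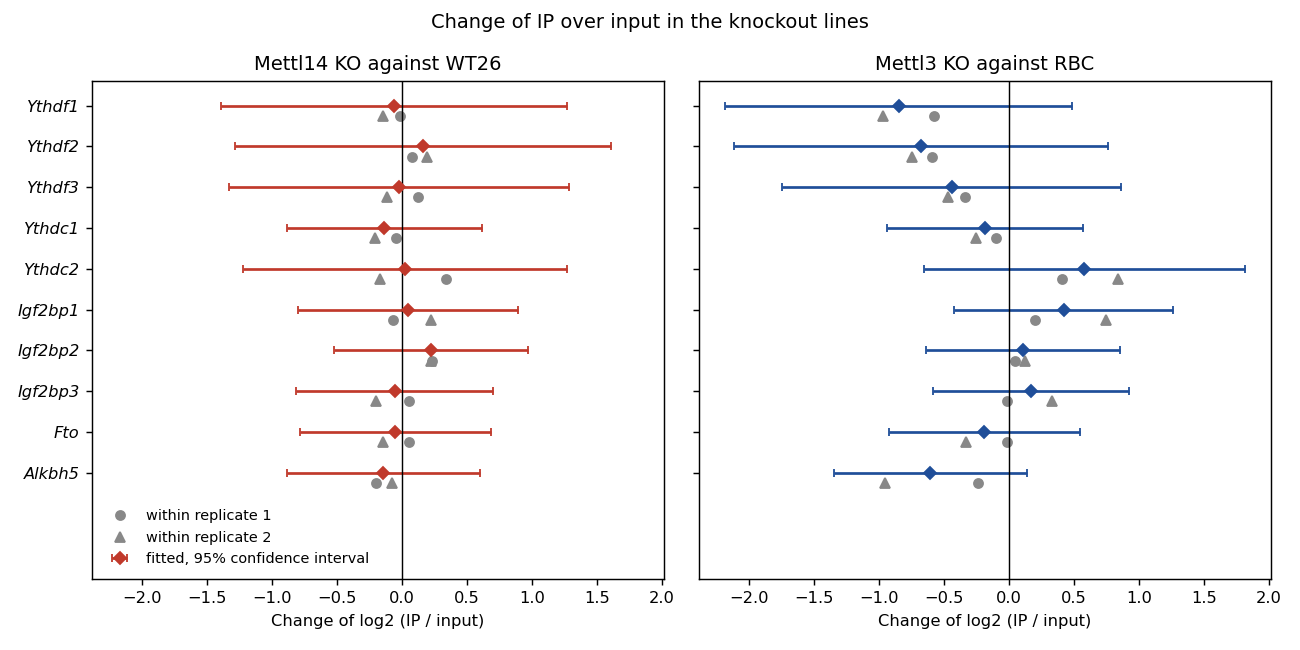
Change of log2 (IP / input) (horizontal axis) of the 10 genes in Mettl14 KO against WT26 (left) and Mettl3 KO against RBC (right), as the fitted value with its 95% confidence interval and, in grey, as the difference within each replicate. All fitted intervals include 0, and the grey points of Ythdf1, Ythdf2, Ythdf3 and Alkbh5 lie below 0 in both replicates of Mettl3 KO.

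Other genes of the m6A pathway were counted for comparison. Of 13 writers and cofactors, 5 were higher and 6 lower in Mettl14 KO and 7 higher and 0 lower in Mettl3 KO cells (median log2 fold change -0.13 and 0.20). Among those that passed, the largest rise in Mettl14 KO was that of Zcchc4 (0.44), a methyltransferase of 28S rRNA, and the largest fall that of Trmt112 (-0.94), a partner of several methyltransferases, and in Mettl3 KO Rbm15 (0.69), which recruits the writer complex to RNA, rose most. Of 13 partners of the readers, 3 were higher and 5 lower in Mettl14 KO and 5 higher and 6 lower in Mettl3 KO cells. Meioc, the partner of YTHDC2 in meiosis, was higher in both (0.67 and 0.76), while Pabpc1, the poly(A)-binding protein, fell most in Mettl14 KO (-0.52) and Cnot7, a CCR4-NOT deadenylase, in Mettl3 KO (-0.44). Of 11 other RNA-binding proteins linked to m6A, 4 were higher and 3 lower in Mettl14 KO (Snd1 0.58, Fxr1 -0.25) and 1 higher and 2 lower in Mettl3 KO cells (Lrpprc 0.12, Hnrnpc -0.40). Of 7 other AlkB genes, 1 was higher and 3 lower in Mettl14 KO (Alkbh1 0.28, Alkbh6 -0.49) and 0 higher and 2 lower in Mettl3 KO cells (Alkbh6 -0.70). Between RBC and WT26, 4 writers and cofactors were higher and 1 lower, and the counts were 2 and 3 for partners of the readers, 4 and 0 for the other RNA-binding proteins and 1 and 1 for the other AlkB genes. The shares in the knockouts stand beside 52.5% and 53.4% of all genes.

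The widest range of the 4 line means was that of Igf2bp2 (0.971 on the log2 scale), followed by Ythdf2 (0.937) and Igf2bp3 (0.700), and the narrowest that of Ythdf1 (0.079). By Pearson correlation over the 8 RNA-seq libraries, among 11878 genes averaging 50 or more normalized counts, the genes most like Igf2bp2 were Kcnj12 (0.989), Slc25a51 (0.983) and A4galt (0.980). Those most like Ythdf2 were Notum (0.991), Hist2h2ac (0.991) and Tut1 (0.989), and those most like Igf2bp3 were Mars2 (0.994), Fdft1 (0.994) and Eif5b (0.993). The 8 points are 4 lines with 2 libraries each, so that a correlation mainly compares the order of the lines.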

How the data were processed

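Nuclear RNA of the 4 ES cell lines was measured in 8 RNA-seq and 16 MeRIP-seq libraries. The authors deposited raw read counts per gene for RNA-seq and per gene and repeat subfamily (1153) for MeRIP-seq, without normalization. Per the submitters' processing notes reads were trimmed with cutadapt 1.8.1 and aligned to GRCm38 with STAR 2.6.0c. The MeRIP counts were made with TEtranscripts in its multi mode, per the methods, which shares reads that map to several places, and the tool and strand setting of the RNA-seq counts are not given in the sources used here. Input and IP of a replicate came from the same sonicated RNA, and 3 MeRIP reactions were combined per replicate.

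Counts were fitted with edgeR 4.0.16 under R 4.3.3 (its quasi-likelihood test over all libraries of a table, size factors of DESeq2 1.42.0, filterByExpr, Benjamini-Hochberg adjustment over 17021 genes or 22621 features). A level or change was called where its adjusted p was 0.05 or less, and enrichment also needed a log2 fold change over 1. All 10 members are given singly in the RNA-seq comparisons of the knockouts; for MeRIP-seq some are named, chosen with their values known, and the rest are given as counts and ranges. Of each list, only the largest rise and fall that passed are named. The likeness rule took the 3 members of widest range. Figures were drawn with Python 3.11.15. The members, lists and printed values were chosen with earlier results of these data known. Alternatives were DESeq2's Wald test, TMM, library size, 2 filters on low counts, only the libraries compared, other call limits, genes without repeats, replicate blocks and leaving out each library. The tests were tried on simulated data. Depth limits counting error only, and the spread between 2 replicates limits precision more.

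Same-numbered RNA-seq libraries of different lines share only a number in the labels. The deviations of these RNA-seq libraries from their line means had correlations of -0.172 (WT26 and RBC) to 0.453 (RBC and Mettl3 KO) over 11879 genes. For MeRIP-seq the pairing of input and IP comes from the methods. The deviations of same-numbered IP libraries from their line means had correlations of 0.598 to 0.806 over 13662 features. For input libraries of different lines the correlations were 0.251 to 0.452.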

Additional observations from a re-analysis of the deposited data

Results flagged for a closer look

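For 6 of the 10 genes the change of the RNA-seq level differed between the knockouts by a test of that difference (Mettl14 KO against WT26 minus Mettl3 KO against RBC, log2 scale, edgeR with Benjamini-Hochberg adjustment over all genes, 2 libraries per line). The difference was -1.14 for Igf2bp2, -0.82 for Ythdf2, -0.52 for Ythdc2, -0.52 for Igf2bp1, -0.38 for Ythdf3 and -0.36 for Alkbh5. Such a difference was called for 43.2% of all genes. For Igf2bp2 the control lines also differed, by -0.98 for RBC against WT26, and the part of the control lines in the difference was not tested. For Ythdf2 the control lines differed by 0.12 (adjusted p = 0.160).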

How the results depend on the processing

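The 6 members called in the difference between the knockouts were also called by DESeq2 with the same sign. With library size as the only scaling, the median of all genes moved to 0.149 in Mettl3 KO and 8 members were higher there; Ythdf1 (0.07), Ythdf3 (0.12) and Ythdc1 (0.14) turned positive. That scaling also turned Ythdf1 (-0.12), Ythdf2 (-0.03) and Ythdf3 (-0.15) in RBC against WT26, and Ythdf1 (-0.10), Ythdc1 (-0.02) and Fto (-0.12) in the difference between the knockouts. TMM turned Ythdf1 in Mettl14 KO (0.00), Ythdc1 in Mettl3 KO (0.00) and Ythdf3 in RBC against WT26 (-0.01). Of these only Ythdc1 in Mettl3 KO (adjusted p = 0.0160) and Ythdf3 in RBC (0.0311) passed, both under library size.

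With one library left out the members called numbered 5 to 7 in Mettl14 KO (5 without its replicate 1), 2 to 4 in Mettl3 KO (2 without its replicate 1), and 0 to 3 for enrichment in WT26, in Mettl14 KO and in RBC. Values then ranged over 0 for Ythdf1 in Mettl14 KO (-0.04 to 0.03) and RBC (-0.04 to 0.09), Ythdf3 in Mettl3 KO (-0.08 to 0.01) and RBC (-0.06 to 0.07), Ythdc1 in Mettl3 KO (-0.04 to 0.02), Ythdc2 in RBC (-0.15 to 0.02), Fto in the difference (-0.07 to 0.20), the enrichment change of Ythdf3 in Mettl3 KO (-0.91 to 0.20) and the input level of Ythdc2 in Mettl14 KO (-0.40 to 0.21). A lone remaining library is assumed to vary like the other groups. In the fits that lost enrichment calls of members, the calls over all features fell strongly too.

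With a log2 fold change over 1 required, the RNA-seq comparisons called 0, 0, 0 and 1 members, and without it enrichment called 6, 6 and 5 in WT26, Mettl14 KO and RBC. Enrichment in Mettl3 KO called 1 member (Ythdf2) with library size, with no filter, with only the libraries compared, and with the replicate block and its interaction with IP. Input levels called 1, 1 and 2 members with only the libraries compared, 3, 1 and 2 with the replicate block over the inputs, and 1 in RBC against WT26 with DESeq2. The replicate block changed no count of members in RNA-seq (8, 4, 5 and 6), and the pair of input and IP as a block kept 3, 3, 3 and 0 enriched. With the longest transcript 5 of 10 places per kilobase were kept. Of 1189 recomputed values not printed singly, 127 changed sign, with adjusted p of 0.191 or more. Why these values moved was not tested.

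Over all features, DESeq2 called 4162 genes in place of 6619 between RBC and WT26, 4806 in place of 7346 for the difference, 1107 in place of 575 enriched in Mettl3 KO, and 412, 460 and 288 in place of 90, 172 and 132 for the input levels. With library size, enriched features numbered 5681 in WT26, 5113 in Mettl14 KO, 5827 in RBC and 2522 in Mettl3 KO, in place of 3272, 2692, 3030 and 575, and 1565 in Mettl3 KO with no filter, 1279 with only its libraries and 1922 with the block and interaction. Input calls were 549, 612 and 423 with no filter, 48, 88 and 47 with at least 10 counts in every library, and 1075, 2185 and 719 with only the libraries compared. Changes of enrichment numbered 24, 25, 7 and 11 features with no filter, and 0 members.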
